A study of Capra hircus with 40 samples.

Results

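Interferon response genes are the genes that cells switch on after interferon, a secreted protein that warns neighbouring cells of infection, has bound its receptor. They were followed here as a list of 36 gene symbols across ovarian and uterine tissue of goats. A row of the count table was taken as a member where its NCBI gene number carried one of the listed symbols in the goat RefSeq annotation, which gave 32 members among 30049 rows. OAS2, IFIT1, USP18 and IFI27 were not found under those symbols and are not analysed here. DDX60, a helicase-like effector, had 67 counts in all 40 libraries together and did not pass the filter on low counts. The other 31 members had counts in 40 of 40 libraries and passed the filter in the ovary, in the uterus and in the fit of both organs.

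RNA was sequenced from the ovary and the uterus of female Jining gray goats at day 1 and at months 2, 4 and 6 after birth, with 5 libraries in each of the 8 groups. All animals came from 1 farm and shared its conditions, and the study follows both organs through sexual maturation. The labels number the individuals of every group from 1 to 5 and do not say whether an ovary and a uterus library of the same age and number came from 1 animal. Library totals ran from 31.9 to 62.7 M counts, and levels below are CPM, a gene's counts scaled to a library total of 1 M, listed in the order of library 1 to library 5.

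In mammals the helicases DDX58 (RIG-I) and IFIH1 (MDA5) detect viral RNA in the cytoplasm and lead to the production of type I interferon. Interferon then acts through its receptor and the kinases JAK1 and TYK2 on a complex that includes STAT2 and IRF9, which switches on the antiviral genes, while IRF7 amplifies interferon production. In the uterus of ruminants the same genes are best known for their response to interferon tau, which the early conceptus secretes. In bulk tissue such as this, a smaller number of cells of a type and less RNA per cell cannot be told apart.

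Before any comparison, 3 libraries have to be described, because they held most of the high values. The libraries are ovary month 4 library 5, uterus month 4 library 5 and uterus day 1 library 3, and they were singled out in earlier results of these data for high levels of these genes, so the values that follow describe them and test nothing. Each was set against the median of the other 4 libraries of its group on the log2 scale. In ovary month 4 library 5 a total of 29 of 31 members stood at least 1 log2 unit above that median, where 9.46% of the 19671 genes tested did. The median difference of the members was 2.88, against -0.43 for all genes tested. In uterus month 4 library 5 the count was 22 of 31, beside 11.2% of the 18789 genes tested, with a median of 1.12 against -0.42. In uterus day 1 library 3 it was 19 of 31, beside 10% of the genes tested, with a median of 1.11 against -0.07.

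The same 16 members passed 1 log2 unit in all 3 libraries: ISG15, MX1, IFI44, IFI44L, HERC6, RSAD2, IFIT3, DDX58, IRF7, CMPK2, IFI6, IFI35, EIF2AK2, ZBP1, SAMD9 and UBA7. STAT2 and TRIM25 passed it in none of the 3. Ovary month 4 library 5 held the highest level of the 40 libraries for 26 members, uterus day 1 library 3 for 2 and uterus month 4 library 5 for 1. A further library, ovary day 1 library 3, had 13 members at least 1 log2 unit above the rest of its group, beside 11.6% of the genes tested, and is treated separately below because its other markers do not match its label.

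**Figure D1:**
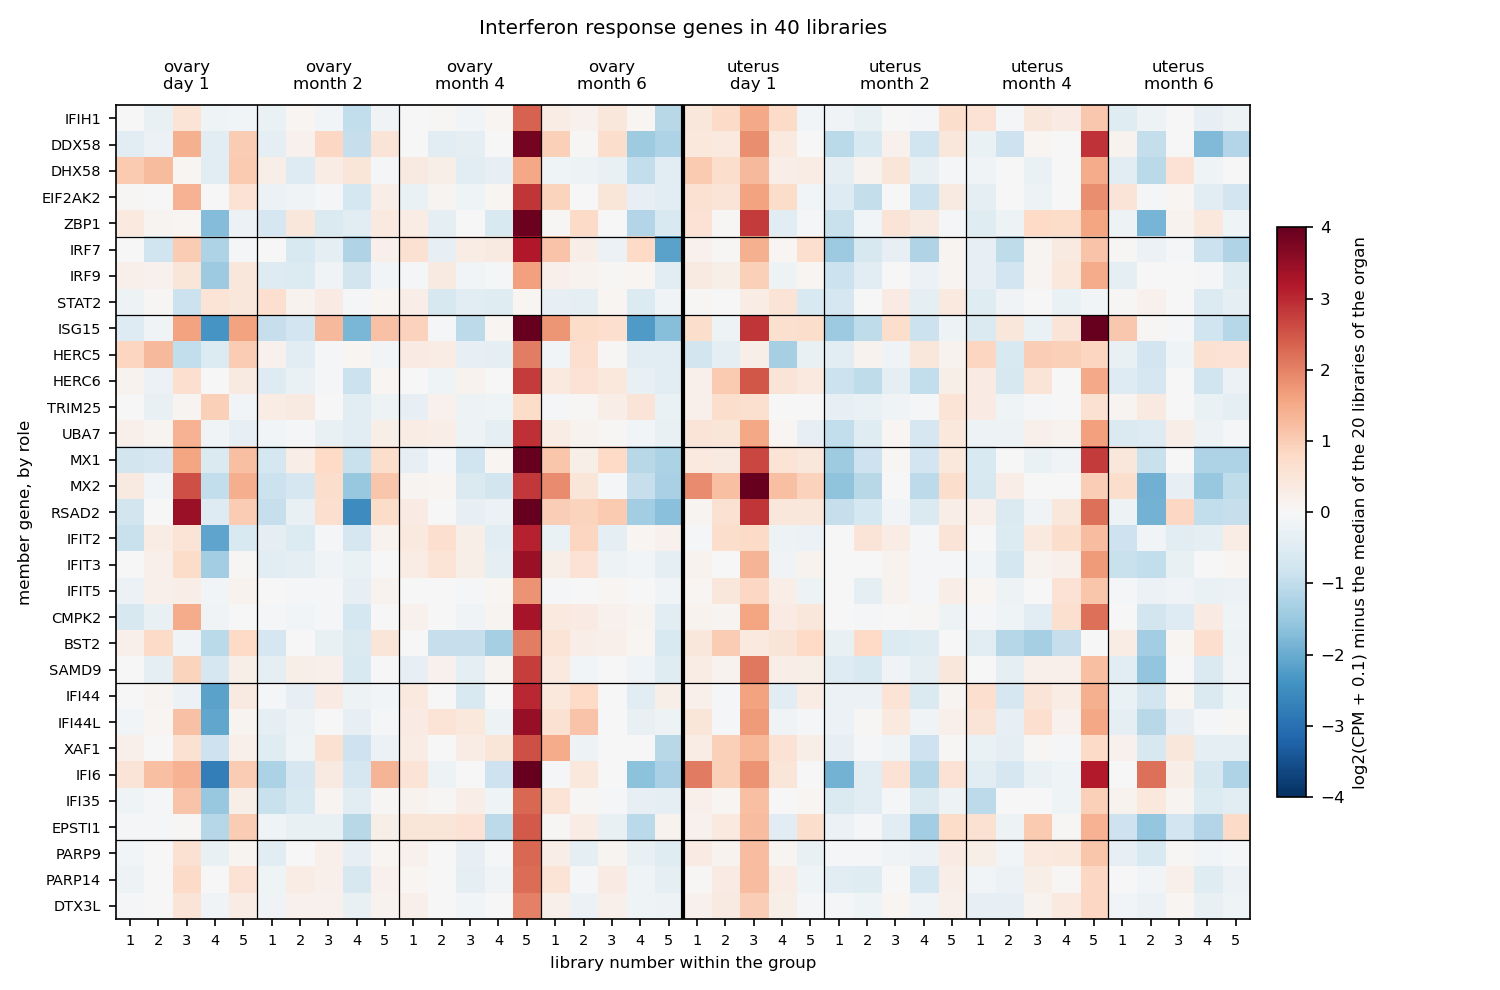
Each row is 1 of 31 members, grouped by role from sensors (top) to PARP family genes (bottom), and each column 1 of 40 libraries. Colour gives log2(CPM + 0.1) minus the median of the 20 libraries of the organ and saturates at -4 and 4. Ovary month 4 library 5, uterus day 1 library 3 and uterus month 4 library 5 form red columns, in which STAT2 and TRIM25 stay pale.

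These libraries also differed from their groups in genes outside the interferon list, and the part of those differences in the interferon values was not tested. Of all genes tested, 9.46% were at least 1 log2 unit up in ovary month 4 library 5 and 11.2% in uterus month 4 library 5. The share was 10% in uterus day 1 library 3 and 11.6% in ovary day 1 library 3. The share of genes that far down is not given here. In ovary month 4 library 5 the summed level of the 6 luteal genes tested (STAR, LHCGR, PTGFR, OXT, SCARB1 and CYP11A1, annotated as LOC102173131) was 25044 CPM, and no other library of the ovary exceeded 445 CPM. There 10 of 11 macrophage markers were at least 1 log2 unit up, with a sum of 889.7 CPM against 159.7 to 267 in the rest of the group. None of 11 T and NK cell markers was up in that library, and all 5 endothelial markers were, with a sum of 1362 CPM against at most 610.1. In uterus month 4 library 5 all 8 uterine markers tested were at least 1 log2 unit down, with a sum of 188.7 CPM against 1930 to 2750.1 in the rest of the group, and 8 of 11 macrophage markers were up, with a sum of 609 CPM against 145 to 285. In the same library 4 of 5 smooth muscle markers and 4 of 5 endothelial markers were up, and 9 of 11 T and NK cell markers were down. Uterus day 1 library 3 differed the other way in macrophage markers, of which 10 of 11 were at least 1 log2 unit down, with a sum of 155 CPM in a group that ran from 142 to 495. Of its 8 uterine markers 2 were down and 1 was up. Ovary day 1 library 3 lacked the ovarian markers, with 8 of 8 granulosa and oocyte genes at least 1 log2 unit down and a sum of 2.91 CPM against at least 255 in its group, and held fat cell markers at a sum of 3060 CPM against at most 2.85. Its macrophage markers were up in 10 of 11 cases, with a sum of 909 CPM against at most 192, all 5 neutrophil and all 5 smooth muscle markers were up, and 8 of 11 T and NK cell markers were down.

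The sensors come first in the pathway. DDX58, the RIG-I helicase that recognises viral RNA ends, stood in the ovary at 22.4, 25.9, 81.7, 21.9 and 61.02 at day 1, 23.4, 33.98, 53.4, 15.9 and 43.01 at month 2, 30.9, 22.5, 23.7, 29.7 and 433 at month 4, and 58.3, 31.2, 49.3, 11.3 and 12.7 at month 6 CPM. Library 5 of month 4 was the highest at 433 CPM, and the next was ovary day 1 library 3 at 81.7. In the uterus DDX58 was at 45.7, 44.98, 125, 45.5 and 35.1 at day 1, 16.1, 22.4, 39.2, 19.7 and 46.7 at month 2, 28.4, 19.4, 36.2, 33.8 and 257 at month 4, and 37.8, 17.7, 33.8, 10.2 and 15.3 at month 6 CPM. The 2 high values, 257 at month 4 and 125 at day 1, lay above the range of the other 18 uterus libraries, whose highest was 46.7 CPM.

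IFIH1, the MDA5 helicase for long double-stranded RNA, was measured in the ovary at 32.96, 26.6, 48.1, 29.4 and 30.7 at day 1, 27.6, 34.9, 30.4, 16.7 and 29.7 at month 2, 32.9, 34.2, 30.3, 35.1 and 169 at month 4, and 40.5, 37.1, 44.7, 34.8 and 15.2 at month 6 CPM. Its highest ovary value of 169 CPM was in month 4 library 5 and the next was 48.1. Uterine IFIH1 was at 48.5, 59.7, 101, 59.3 and 32.3 at day 1, 32.2, 28.8, 34.97, 33.7 and 57.2 at month 2, 52.2, 33.8, 48.2, 44.3 and 74.01 at month 4, and 25.1, 30.7, 35.3, 28.2 and 30.2 at month 6 CPM. The gap was smaller here, since 101 and 74.0 CPM in the 2 libraries stood against up to 59.7 in the others.

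DHX58, the LGP2 helicase that tunes the other RNA sensors, was at 48.04, 55.6, 24.5, 17.1 and 48.2 at day 1, 27.1, 16.2, 28.5, 32.1 and 21.7 at month 2, 29.6, 27.1, 16.9, 18.5 and 67.7 at month 4, and 20.6, 19.9, 18.7, 11.7 and 17.1 at month 6 CPM in the ovary. Apart from the 67.7 CPM of month 4 library 5, its highest ovary values were the 48.0, 55.6 and 48.2 CPM of day 1. The uterus held DHX58 at 31.7, 24.99, 37.7, 18.5 and 18.7 at day 1, 12.05, 17.05, 21.6, 12.4 and 14.8 at month 2, 13.9, 15.6, 12.9, 15.2 and 43.1 at month 4, and 11.6, 7.28, 22.96, 13.8 and 15.1 at month 6 CPM. Its values in month 4 library 5 and day 1 library 3 were the highest of the organ, at 43.1 and 37.7 CPM.

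ZBP1, a sensor of Z-form nucleic acid that can start cell death, was at 4.03, 3.299, 3.28, 0.853 and 2.62 at day 1, 1.88, 4.24, 2.02, 2.29 and 4.06 at month 2, 3.76, 2.38, 3.04, 1.997 and 47.7 at month 4, and 3.16, 5.25, 3.11, 1.31 and 1.99 at month 6 CPM in the ovary. All ovary libraries but the 47.7 CPM of month 4 library 5 lay at or below 5.25. In the uterus ZBP1 was at 4.95, 3.37, 23.2, 2.39 and 3.14 at day 1, 1.703, 3.03, 4.67, 4.18 and 3.12 at month 2, 2.32, 2.82, 5.78, 5.48 and 9.82 at month 4, and 2.79, 0.825, 3.599, 4.39 and 2.86 at month 6 CPM. Day 1 library 3, at 23.2 CPM, was above month 4 library 5, at 9.82, and the others did not exceed 5.78.

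EIF2AK2, the kinase PKR that halts translation on double-stranded RNA, was at 82.3, 79.99, 207, 78.2 and 118 at day 1, 68.2, 72.4, 76.5, 48.7 and 96.7 at month 2, 66.6, 86.9, 71.2, 84.1 and 574 at month 4, and 149, 79.4, 112, 62.9 and 59.1 at month 6 CPM in the ovary. The highest were month 4 library 5 and day 1 library 3, at 574 and 207. In the uterus EIF2AK2 was at 171, 158, 339, 184 and 103 at day 1, 77.3, 57.4, 111, 61.8 and 143 at month 2, 85.7, 111, 96.8, 113 and 403 at month 4, and 159, 107, 116, 80.7 and 64.6 at month 6 CPM. The 403 and 339 CPM of the 2 libraries stood above the other 18, whose highest was 184.

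Of the signalling members, IRF7, the transcription factor that amplifies interferon production, was at 2.17, 1.18, 4.42, 0.853 and 2.05 at day 1, 2.08, 1.36, 1.61, 0.876 and 2.46 at month 2, 3.31, 1.68, 2.63, 2.78 and 20.6 at month 4, and 4.79, 2.58, 1.78, 3.77 and 0.409 at month 6 CPM in the ovary. The 20.6 CPM of month 4 library 5 stood against at most 4.79 elsewhere in the organ. In the uterus IRF7 was at 5.398, 4.86, 12.97, 4.98 and 7.55 at day 1, 1.66, 3.01, 3.801, 1.99 and 5.11 at month 2, 3.79, 2.31, 5.12, 6.12 and 10.6 at month 4, and 4.91, 4.05, 4.64, 2.59 and 1.999 at month 6 CPM. The day 1 values of the organs did not overlap, since the highest in the ovary was 4.42 and the lowest in the uterus 4.86.

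IRF9, the DNA-binding subunit of the interferon-activated complex, was at 18.5, 17.99, 22.8, 5.86 and 21.9 at day 1, 11.1, 10.9, 14.6, 9.55 and 14.9 at month 2, 15.5, 20.8, 14.9, 15.2 and 49.95 at month 4, and 18.6, 17.8, 16.7, 16.9 and 11.7 at month 6 CPM in the ovary. Only the 49.95 CPM of month 4 library 5 exceeded 22.8 among the 20 ovary libraries. Uterine IRF9 was at 26.4, 24.01, 39.8, 17.6 and 21.4 at day 1, 11.2, 14.9, 20.3, 17.3 and 22.2 at month 2, 16.4, 11.9, 21.9, 27.7 and 58.1 at month 4, and 15.5, 20.6, 20.8, 19.7 and 14.7 at month 6 CPM. The 58.1 of month 4 library 5 and the 39.8 of day 1 library 3 stood above the 27.7 of the next library.

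STAT2, a partner of IRF9 in that complex, was at 124, 149, 78.1, 208 and 194 at day 1, 228, 159, 178, 138 and 150.3 at month 2, 171, 91.8, 104, 102 and 150.1 at month 4, and 114, 112, 151, 97.9 and 129.9 at month 6 CPM in the ovary. Month 4 library 5, at 150.1 CPM, was not the highest of its own group. In the uterus STAT2 was at 93.997, 90.6, 111, 132 and 58.95 at day 1, 56.9, 91.4, 113, 70.03 and 119 at month 2, 65.2, 81.6, 90.6, 75.3 and 83.9 at month 4, and 93.02, 101, 92.3, 62.3 and 68.9 at month 6 CPM. The 83.9 CPM of month 4 library 5 and the 111 of day 1 library 3 lay within the ranges of their groups as well.

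ISG15, a ubiquitin-like protein that is joined to other proteins, led the conjugation genes. Its ovary levels were 4.86, 6.304, 21.7, 1.28 and 21.5 at day 1, 3.65, 4.14, 17.5, 1.89 and 15.99 at month 2, 13.5, 6.69, 3.37, 7.38 and 426 at month 4, and 24.3, 11.8, 11.3, 1.38 and 2.07 at month 6 CPM. Month 4 library 5 was 60.5-fold above the median of its group's other 4 libraries, the largest ratio among the 31 members. Uterine levels of ISG15 were 10.1, 5.28, 45.2, 9.63 and 9.996 at day 1, 2.19, 2.99, 10.1, 3.33 and 5.36 at month 2, 4.04, 8.395, 5.096, 8.8995 and 132 at month 4, and 13.1, 6.36, 5.94, 3.51 and 2.72 at month 6 CPM. The 132 CPM of month 4 library 5 was 19.6-fold above the same kind of median, and the 45.2 CPM of day 1 library 3 was 4.601-fold above it.

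HERC6, the ligase that joins ISG15 to proteins in mice, was at 14.4, 10.96, 20.9, 12.9 and 16.7 at day 1, 9.16, 10.9, 12.6, 7.13 and 13.9 at month 2, 13.01, 11.5, 14.4, 13.1 and 90.9 at month 4, and 16.9, 19.7, 17.4, 10.5 and 9.45 at month 6 CPM in the ovary. Its 90.9 CPM in month 4 library 5 compared with at most 20.9 in the other ovary libraries. In the uterus HERC6 was at 18.8, 34.02, 91.6, 23.3 and 21.3 at day 1, 8.91, 8.05, 12.6, 8.15 and 19.2 at month 2, 20.5, 10.5, 23.3, 15.99 and 46.4 at month 4, and 11.3, 10.1, 16.7, 9.31 and 13.9 at month 6 CPM. Day 1 library 3 reached 91.6 and month 4 library 5 reached 46.4, while the others lay at or below 34.02.

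HERC5, the ligase that does this in human cells, was at 34.03, 46.2, 9.497, 12.7 and 37.7 at day 1, 20.9, 13.7, 18.3, 19.9 and 17.2 at month 2, 23.7, 23.1, 14.9, 14.4 and 77.3 at month 4, and 17.4, 29.9, 19.1, 14.1 and 13.8 at month 6 CPM in the ovary. At day 1 it ran from 9.50 CPM in library 3 to 46.2 in library 2. The uterus held HERC5 at 9.06, 11.6, 17.6, 5.95 and 12.2 at day 1, 11.2, 16.6, 13.6, 20.7 and 16.7 at month 2, 27.5, 9.78, 29.7, 29.5 and 27.5 at month 4, and 12.2, 8.87, 13.2, 22.9 and 22.6 at month 6 CPM. Unlike HERC6, it was not raised in uterus month 4 library 5, whose 27.5 CPM was 0.966-fold the median of the other 4. Of the other conjugation genes, UBA7, the ISG15-activating enzyme, was 7.44-fold, 3.21-fold and 2.40-fold above the median in ovary month 4 library 5, uterus month 4 library 5 and uterus day 1 library 3. TRIM25, a ligase that helps activate RIG-I, was 1.90-fold, 1.59-fold and 1.43-fold above it.

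Among the antiviral effectors, MX1, a GTPase that traps viral particles, was at 26.9, 28.2, 133, 30.1 and 102 at day 1, 27.4, 53.6, 78.2, 24.2 and 73.2 at month 2, 35.7, 42.2, 26.01, 47.8 and 1157 at month 4, and 97.3, 52.7, 78.2, 20.8 and 18.8 at month 6 CPM in the ovary. The 1157 CPM of month 4 library 5 stood 29.7-fold above the median of the others. In the uterus MX1 was at 60.7, 59.7, 298, 68.1 and 64.1 at day 1, 17.2, 26.2, 48.2, 27.3 and 62.3 at month 2, 30.1, 46.2, 38.5, 41.9 and 324 at month 4, and 63.2, 25.2, 46.7, 19.8 and 19.6 at month 6 CPM. Both high libraries, at 324 and 298 CPM, were far above the highest of the other 18, at 68.1.

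MX2, a related GTPase, had another order. Its ovary levels were 13.97, 9.96, 64.5, 5.41 and 29.8 at day 1, 5.897, 6.71, 17.4, 3.68 and 23.4 at month 2, 11.6, 11.4, 7.13, 6.46 and 76.3 at month 4, and 40.5, 14.97, 10.2, 5.64 and 4.29 at month 6 CPM. Uterine MX2 was at 62.7, 38.9, 285, 38.99 and 31.99 at day 1, 5.44, 7.73, 16.7, 8.13 and 27.5 at month 2, 10.7, 20.5, 17.05, 16.9 and 33.9 at month 4, and 27.5, 4.39, 13.5, 5.92 and 8.41 at month 6 CPM. The highest MX2 value of the 40 libraries was the 285 CPM of uterus day 1 library 3, not the 76.3 CPM of ovary month 4 library 5. Its level in uterus month 4 library 5, 33.9 CPM, was highest of its group but below 4 of the 5 uterus libraries of day 1.

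RSAD2 (viperin), which makes a chain-terminating nucleotide against viruses, was at 3.79, 6.46, 70.9, 4.43 and 13.03 at day 1, 3.31, 5.14, 10.2, 1.03 and 10.6 at month 2, 7.99, 6.26, 5.07, 5.38 and 106 at month 4, and 12.7, 11.7, 13.4, 2.35 and 1.91 at month 6 CPM in the ovary. Month 4 library 5 and day 1 library 3, at 106 and 70.9 CPM, were the only ovary libraries above 13.4. In the uterus RSAD2 was at 11.6, 16.4, 79.04, 14.6 and 14.8 at day 1, 5.68, 6.503, 9.97, 7.23 and 12.9 at month 2, 12.4, 7.18, 9.82, 14.8 and 50.04 at month 4, and 9.298, 2.85, 19.2, 5.33 and 5.63 at month 6 CPM. The 79.0 and 50.04 CPM of the 2 high libraries stood above the others, of which the highest was 19.2.

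IFIT2, which binds viral RNA, was at 7.4996, 17.2, 20.8, 3.21 and 9.24 at day 1, 10.9, 9.59, 13.5, 8.78 and 15.5 at month 2, 18.6, 22.5, 16.5, 10.3 and 121 at month 4, and 11.6, 25.9, 10.8, 14.8 and 15.9 at month 6 CPM in the ovary. Its 121 CPM in month 4 library 5 compared with at most 25.9 elsewhere. Uterine IFIT2 was at 16.5, 28.3, 29.4, 14.8 and 14.6 at day 1, 16.8, 24.7, 21.1, 16.7 and 24.6 at month 2, 17.5, 11.6, 22.3, 27.9 and 40.4 at month 4, and 9.55, 15.7, 12.5, 13.1 and 20.95 at month 6 CPM. Day 1 library 3, at 29.4, hardly differed from library 2 of the same age, at 28.3.

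IFIT3, its partner, was at 32.5, 37.4, 54.2, 12.3 and 33.6 at day 1, 23.6, 24.98, 29.6, 27.2 and 32.9 at month 2, 40.6, 48.3, 38.8, 25.4 and 359 at month 4, and 38.5, 49.2, 28.6, 30.6 and 25.6 at month 6 CPM in the ovary. The 359 CPM of month 4 library 5 was 9.06-fold above the median of the other 4. In the uterus IFIT3 was at 51.9, 47.1, 120.3, 42.7 and 52.2 at day 1, 47.99, 46.8, 51.3, 45.5 and 45.9 at month 2, 43.3, 28.6, 51.7, 53.8 and 154 at month 4, and 25.1, 23.7, 38.1, 46.9 and 49.4 at month 6 CPM. The 154 and 120.3 CPM of the 2 high libraries were above the 53.8 CPM of the next.

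BST2 (tetherin), which holds budding virus at the cell surface, was at 3.81, 5.62, 2.94, 1.502 and 5.81 at day 1, 1.9997, 3.28, 2.62, 2.17 and 4.65 at month 2, 3.28, 1.6999, 1.69, 1.23 and 13.8 at month 4, and 4.79, 3.996, 3.77, 3.497 and 2.11 at month 6 CPM in the ovary. Only month 4 library 5, at 13.8 CPM, exceeded 5.81. In the uterus BST2 was at 4.69, 6.94, 4.44, 4.84 and 5.997 at day 1, 2.73, 5.88, 2.26, 2.41 and 3.44 at month 2, 2.44, 1.47, 1.29, 1.75 and 3.32 at month 4, and 4.19, 1.24, 3.599, 5.48 and 2.901 at month 6 CPM. Uterus day 1 library 3 held the lowest of its group, 4.44 CPM, although most other members were highest there. The remaining effectors followed the majority: CMPK2, a nucleotide kinase, was 9.46-fold, 5.08-fold and 2.54-fold above the median in ovary month 4 library 5, uterus month 4 library 5 and uterus day 1 library 3. SAMD9, an antiviral restriction factor, was at 60.1, 47.02, 111, 37.6 and 71.1 at day 1, 46.9, 71.8, 69.9, 39.3 and 60.8 at month 2, 47.9, 68.6, 47.5, 64.9 and 409 at month 4, and 79.1, 55.4, 61.3, 55.4 and 43.4 at month 6 CPM in the ovary. In the uterus SAMD9 was at 84.1, 76.2, 295, 82.9 and 79.9 at day 1, 47.6, 44.6, 62.4, 51.7 and 92.8 at month 2, 68.1, 51.6, 78.7, 78.02 and 159 at month 4, and 50.6, 23.03, 68.7, 45.4 and 62.3 at month 6 CPM. Its highest values were the 409 of ovary month 4 library 5, the 295 of uterus day 1 library 3 and the 159 of uterus month 4 library 5. IFIT5, which like IFIT2 binds RNA, was 3.46-fold, 2.12-fold and 1.58-fold above the median in ovary month 4 library 5, uterus month 4 library 5 and uterus day 1 library 3.

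Of the members known mainly as interferon-induced, IFI6, a membrane protein that limits virus replication, was at 218, 349, 399, 22.4 and 307 at day 1, 63.9, 94.96, 195, 94.9 and 391 at month 2, 225, 132, 152, 85.5 and 2854 at month 4, and 147, 206, 153, 49.4 and 62.5 at month 6 CPM in the ovary. Month 4 library 5 held 2854 CPM, against at most 399 in the other 19. In the uterus IFI6 was at 746, 341, 613, 245 and 174 at day 1, 47.2, 129.7, 262, 80.04 and 261 at month 2, 129, 111, 148, 156 and 1588 at month 4, and 179, 811, 211, 114 and 74.8 at month 6 CPM. Besides the 1588 CPM of month 4 library 5, month 6 library 2 and day 1 library 1 were high at 811 and 746.

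XAF1, a promoter of cell death, was at 5.01, 4.38, 6.73, 2.39 and 5.04 at day 1, 3.06, 3.901, 6.67, 2.44 and 3.67 at month 2, 5.33, 4.28, 5.36, 6.15 and 26.4 at month 4, and 12.3, 3.77, 4.297, 4.35 and 1.97 at month 6 CPM in the ovary. The highest was month 4 library 5 at 26.4, and the next was month 6 library 1 at 12.3. Uterine XAF1 was at 11.9, 18.5, 24.1, 14.3 and 11.4 at day 1, 7.63, 9.04, 8.72, 5.32 and 9.97 at month 2, 7.92, 7.43, 9.93, 9.202 and 16.3 at month 4, and 10.9, 6.04, 13.04, 7.22 and 7.51 at month 6 CPM. At day 1 every uterus library lay above every ovary library, 11.4 to 24.1 against 2.39 to 6.73. IFI44, IFI44L, IFI35 and EPSTI1 were between 3.97-fold and 8.56-fold above the median in ovary month 4 library 5, and between 1.95-fold and 3.33-fold in the 2 uterus libraries. The PARP family members PARP9 and PARP14 and the PARP9 partner DTX3L were between 4.07-fold and 5.07-fold above it in ovary month 4 library 5, and between 1.73-fold and 2.16-fold in the 2 uterus libraries.

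**Figure D2:**
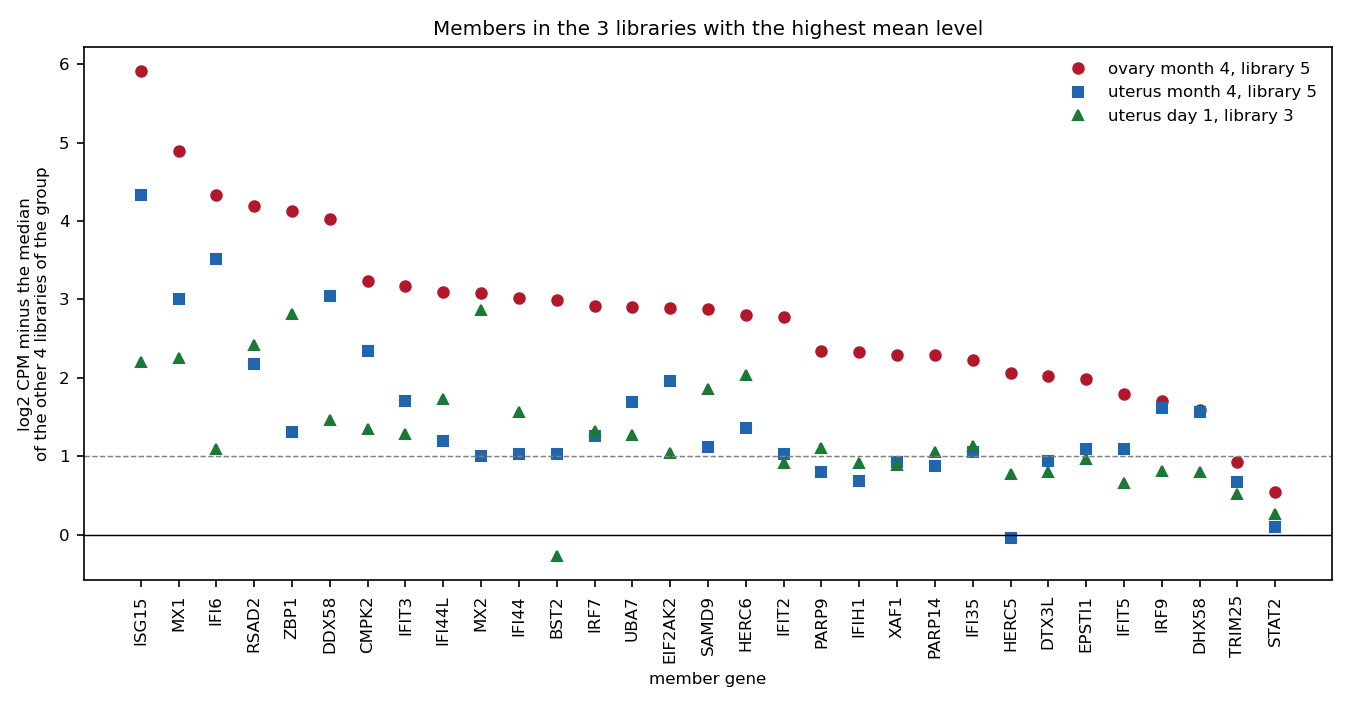
Points give, for 31 members, log2 CPM minus the median of the other 4 libraries of the group in ovary month 4 library 5, uterus month 4 library 5 and uterus day 1 library 3, ordered by the first. The dashed line marks 1 log2 unit. ISG15, at 5.91, leads in the ovary library, MX2 at 2.87 in the uterus day 1 library, and STAT2 at 0.55 is the lowest in the ovary library.

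The levels of most members moved together outside these libraries too, which is a description because the libraries share organ, age and depth. Over the 36 libraries without ovary day 1 library 3 and the 3 named above, the correlation of a member's log2 CPM with the mean of the other members was r = 0.87 for MX2, 0.84 for RSAD2 and 0.78 for DDX58. It was -0.14 for STAT2, -0.01 for TRIM25, 0.03 for HERC5 and 0.22 for DHX58. Within an organ these 4 differed: in the uterus the value was 0.68 for DHX58, 0.52 for TRIM25, 0.43 for STAT2 and -0.15 for HERC5, and in the ovary it was 0.32, -0.35, -0.09 and 0.50.

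The first question of the design is how levels change with age within an organ, and in the ovary no member passed the test at any step. The edgeR quasi-likelihood test on all 20 ovary libraries called a gene at a Benjamini-Hochberg adjusted p under 0.05 over all genes and a log2 fold change of at least 1 in either direction. From day 1 to month 2 it called 0 of 31 members, with a median log2 fold change of -0.36 (and -0.002 on leaving out ovary day 1 library 3), beside 0.00508% of the 19671 genes tested. From month 2 to month 4 it called 0 members and 0% of the genes, from month 4 to month 6 again 0 and 0%, and from day 1 to month 6 it called 0 members beside 0.0763% of the genes. DESeq2 also called 0 members in each of these 4 comparisons, beside 0.224%, 0.122%, 0.0203% and 3.33% of the genes. At an unadjusted p under 0.05 the members counted 0, 21, 14 and 1 in that order, beside 7.56%, 8.9%, 2.64% and 14.3% of all genes. When the 3 libraries named above were left out, the count was 1 in each comparison, beside 8.7%, 7.27%, 1.54% and 16% of all genes.

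The steps into and out of month 4, which share the month 4 libraries, rested on library 5. With all libraries 30 of 31 members had a higher mean at month 4 than at month 2, by a median log2 fold change of 1.37 against 0.04 for all genes. When the 3 libraries were left out, 13 of 31 were higher, with a median of -0.04 against 0.01. From month 4 to month 6 the median was -1.03 with all libraries and 0.14 without them, and the members with a higher mean went from 1 to 27. ISG15 shows it: its log2 fold change from month 2 to month 4 was 3.53 ± 1.34 (SE, edgeR adjusted p = 0.549), and without library 5 the month 4 values of 3.37 to 13.5 CPM lay inside the 1.89 to 17.5 CPM of month 2. MX1 changed by 2.49 ± 1.01 (adjusted p = 0.549) with all libraries and by -0.54 (adjusted p = 0.884) without the 3.

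From day 1 to month 6, a comparison whose groups do not hold ovary month 4 library 5, the ovary members had a median log2 fold change of -0.17 and 8 of 31 were higher. There edgeR also called 0 of 31 members without the 3 libraries, beside 0.15% of the genes, with 1 member at an unadjusted p under 0.05 beside 16% of all genes. The lower median depended on ovary day 1 library 3, the library with fat cell markers: without it and the other 3, 24 of 31 were higher and the median was 0.13. In that reduced fit DHX58 was called, 1 of 31 members beside 4.31% of the genes tested. It fell by 1.16 on the log2 scale (SE 0.29, edgeR adjusted p = 0.0294), and with all libraries its change was -1.07 ± 0.39 (adjusted p = 0.225). Its ovary values at day 1 with library 3 left out were 48.0, 55.6, 17.1 and 48.2 CPM, and at month 6 they were 11.7 to 20.6, so library 4 of day 1 overlapped month 6. Leaving out 1 ovary library at a time gave changes between -1.28 and -0.97 and no call (adjusted p 0.107 to 0.373).

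In the uterus 1 member passed the test between ages, and it was lower at month 6 than at day 1. From day 1 to month 6 edgeR called MX2, 1 of 31 members beside 1.42% of the 18789 genes tested, at -2.96 ± 0.68 on the log2 scale (SE, adjusted p = 0.0364). The day 1 values of 32.0 to 285 CPM lay above the month 6 values of 4.39 to 27.5 in 5 of 5 libraries. Without uterus day 1 library 3 and the other 2 libraries the change was -1.81 ± 0.49 and was no longer called (adjusted p = 0.0697), when 0 of 31 members and 1.27% of the genes were called. The call was also lost, with changes between -1.82 and -3.09, on leaving out day 1 library 1 (adjusted p = 0.0507), day 1 library 3 alone (0.114) or month 6 library 2 (0.0930), 3 (0.0536), 4 (0.0803) or 5 (0.0660). Leaving out day 1 library 5 added a call, IFIH1 at -1.14 ± 0.27 (adjusted p = 0.0465). The MX2 call was lost as well with no filter on low counts (adjusted p = 0.0515) and with only the groups compared in the fit (0.124). DESeq2 called 3 members, MX2, HERC6 and SAMD9, beside 5.03% of the genes.

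The other uterus members pointed the same way in that comparison without passing the test. The median log2 fold change of the 31 was -0.84, against 0.01 for all genes, and 30 of 31 were lower at month 6, the exception being HERC5 at 0.51 ± 0.34 (edgeR adjusted p = 0.461). At an unadjusted p under 0.05 the members counted 13 of 31, beside 17.3% of all genes. Without the 3 libraries the median was -0.40 and 30 of 31 were still lower. Then 9 of 31 had an unadjusted p under 0.05, 8 of them lower and 1 higher, beside 16.9% of all genes. With all libraries HERC6 had -1.63 ± 0.46 (adjusted p = 0.0798) and IFIH1 -0.997 ± 0.27 (adjusted p = 0.0697), and without the 3 they had -0.95 ± 0.26 (adjusted p = 0.0729) and -0.69 ± 0.18 (adjusted p = 0.0622). Groups of values did not overlap, with day 1 above month 6, for MX2, HERC6 and SAMD9, 3 of 31 members beside 2.26% of all genes. The same kind of gap at the step from day 1 to month 2 was seen for MX2, CMPK2, XAF1 and IFI35, 4 of 31 beside 1.47% of all genes.

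Step by step, edgeR called 0 of 31 uterus members from day 1 to month 2, beside 0.016% of the genes, and 0 in each of the next 2 steps, beside 0% of the genes. At an unadjusted p under 0.05 the members counted 13 in each of these 3 steps, beside 12.3%, 6.62% and 10.8% of all genes. Without the 3 libraries they counted 10, 2 and 4, beside 9.49%, 5.88% and 10.8% of all genes. With all libraries DESeq2 called 3 members from day 1 to month 2, MX2, HERC6 and XAF1, beside 1.45% of the genes. It called 0 in the other 2 steps, beside 0.122% and 0.282%. MX2 changed by -2.93 ± 0.68 from day 1 to month 2 (edgeR adjusted p = 0.124) and by -1.78 (adjusted p = 0.266) without the 3 libraries, when 0 of 31 members and 0.0106% of the genes were called at that step. The medians of the 31 members in order of age were -0.78, 0.72 and -0.79 with all libraries and -0.45, 0.19 and -0.18 without the 3, so at both steps that share month 4 most of the size came from library 5.

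**Figure D3:**
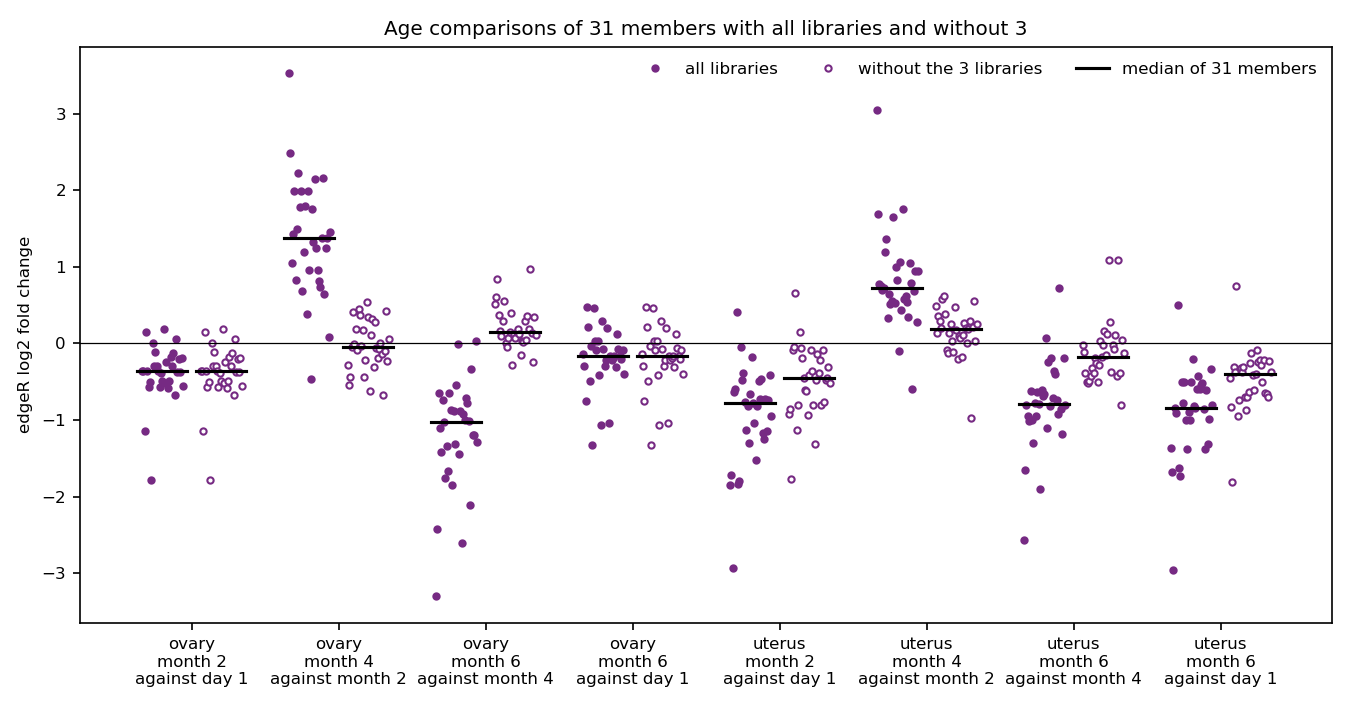
Each point is the edgeR log2 fold change of 1 of 31 members in an age comparison, with all libraries (filled) and without ovary month 4 library 5, uterus month 4 library 5 and uterus day 1 library 3 (open), and bars are medians. The ovary medians of 1.37 and -1.03 around month 4 moved to -0.04 and 0.14, and the uterus median from day 1 to month 6 moved from -0.84 to -0.40.

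The mean level of the 31 members per library, on the log2 CPM scale with a prior count of 2, gives the same picture by group. In the ovary it was 4.49 ± 0.61 at day 1, 4.23 ± 0.38 at month 2, 4.92 ± 1.28 at month 4 and 4.36 ± 0.48 at month 6 (SD, n = 5 each). In the uterus it was 5.15 ± 0.59, 4.39 ± 0.37, 4.88 ± 0.71 and 4.31 ± 0.24. Without the 3 libraries and ovary day 1 library 3 (n = 4), the ovary was at 4.31 ± 0.54 at day 1 and 4.35 ± 0.19 at month 4, and the uterus at 4.89 ± 0.13 at day 1 and 4.58 ± 0.24 at month 4. The 4 remaining uterus libraries of day 1, at 4.75 to 5.00, then lay above all month 6 libraries, at 4.03 to 4.62, whereas the ovary groups overlapped at every age.

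The second question is where the organs differ at a given age, tested in 1 edgeR fit of 40 libraries. At day 1 it called 2 of 31 members, beside 14.2% of the 20518 genes tested, and 28 of 31 members had a lower mean in the ovary, with a median of -0.54 against 0.07 for all genes. At an unadjusted p under 0.05 the members counted 6 of 31, beside 29.2% of all genes. Without the 3 libraries that count was 7 of 31, 4 of them lower in the ovary, beside 29.1% of all genes. The median was then -0.27, against 0.03 for all genes, and 22 of 31 were lower. Without ovary day 1 library 3 as well the count was 21 of 31, 18 of them lower, beside 32.8% of all genes, with a median of -0.54. XAF1 was lower in the ovary, at -1.73 ± 0.47 on the log2 scale (adjusted p = 0.00857). It stayed called without the 3 libraries (-1.55, adjusted p = 0.00294) and on leaving out each of the 10 libraries in turn (highest adjusted p = 0.0301). HERC5 was the 1 member called higher in the ovary, by 1.27 ± 0.43 (adjusted p = 0.0339), and by 1.46 (adjusted p = 0.00493) without the 3. Its values did overlap: the ovary libraries 3 and 4 held 9.50 and 12.7 CPM, and the uterus held 5.95 to 17.6. The HERC5 call was lost on leaving out ovary library 1 (adjusted p = 0.0608), 2 (0.131) or 5 (0.0945), or uterus library 1 (0.0790), 2 (0.0617), 4 (0.0952) or 5 (0.0503), with differences of 1.01 to 1.32. It was lost as well with only the groups compared in the fit (1.27, adjusted p = 0.110).

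IRF7 fell just outside the threshold at day 1, at -1.69 ± 0.62 (edgeR adjusted p = 0.0559), with every ovary value below every uterus value. XAF1 showed the same gap, so 2 of 31 members were lower without overlap, beside 3.89% of all genes. IRF7 was called without the 3 libraries, at -1.38 (adjusted p = 0.0475), and without ovary day 1 library 3 alone, at -2.24 (adjusted p = 0.0132). Leaving out that library also added MX2, at -2.67 ± 0.87 (adjusted p = 0.0241). Without the 3 libraries 3 of 31 members were called beside 14.1% of the genes, and without ovary day 1 library 3 as well 4 of 31, IFIT2 being added, beside 17.6%. DESeq2 called 3 members with all libraries, beside 16.2% of the genes.

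At the later ages no member was called with all libraries. At month 2 edgeR called 0 of 31, beside 16.3% of the genes tested. At month 4 it called 0, beside 11.1%, and at month 6 it called 0, beside 10.1%. DESeq2 called 0 at each of these ages, beside 18.6%, 13.9% and 12.4% of the genes, and the members with an unadjusted p under 0.05 numbered 2, 2 and 1, beside 32.7%, 29.3% and 23.9% of all genes. STAT2 differed most clearly: it was higher in the ovary at month 2 by 0.97 ± 0.24 (adjusted p = 0.00347), which is under the fold threshold. Leaving out ovary month 2 library 2 or 4, or uterus month 2 library 3 or 5, took it just past that threshold, with differences of 1.01 to 1.05 and adjusted p of 0.00415 to 0.00439. Its values at month 2, 138 to 228 CPM in the ovary and 56.9 to 119 in the uterus, did not overlap, and neither did those at month 4, 91.8 to 171 against 65.2 to 90.6. A gap of this direction was found for 1 of 31 members at month 2, beside 12.6% of all genes, and for 1 at month 4, beside 4.29%. In the other direction IFI44L, IFIT2 and IFIT3 did not overlap at month 2, 3 of 31 beside 11.2% of all genes.

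Without the 3 libraries XAF1 was also called lower in the ovary at month 2 (-1.04, edgeR adjusted p = 0.0283), 1 of 31 members beside 17.9% of the genes. At month 4 the direction of the members turned with the library left out: the median was 0.40 with all libraries, -0.99 without ovary library 5 and 0.92 without uterus library 5. Without ovary library 5 EIF2AK2 was called lower in the ovary, at -1.34 ± 0.44 (adjusted p = 0.0430). Without uterus library 5, while ovary library 5 was kept, ISG15 was called higher at 3.98 ± 1.22 (adjusted p = 0.0255), as were MX1 at 2.93 ± 0.93 (adjusted p = 0.0302) and DHX58 at 1.21 ± 0.37 (adjusted p = 0.0262). The kept ovary library 5 is one of those singled out for high levels of these genes. The share of all genes called in these fits is not given here, and with all libraries it was 11.1%. Without the 3 libraries the median was -0.32, 26 of 31 members were lower in the ovary and 0 were called, beside 10.2% of the genes. The difference between the organs in the change from day 1 to month 6 gave 0 called members in edgeR and 0 in DESeq2, beside 0.234% and 1.56% of the genes, with 1 of 31 at an unadjusted p under 0.05 beside 11.1% of all genes. The median of these differences was 0.54, against -0.09 for all genes, and 27 of 31 were positive. Without the 3 libraries the median was 0.28, against -0.06 for all genes, and 24 of 31 were positive. In that fit 3 of 31 had an unadjusted p under 0.05, 2 of them positive, beside 10.9% of all genes. It called 0 members, beside 0.183% of the genes. Without ovary day 1 library 3 and the other 3, the members at an unadjusted p under 0.05 counted 10 of 31, 9 of them positive, beside 12.1% of all genes, and 0 were called, beside 1.05% of the genes. With all libraries the highest of these estimates was that of MX2, at 2.12 ± 1.12 (edgeR adjusted p = 0.495). Without the 3 libraries the highest estimate of any member was 1.03.

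**Figure D4:**
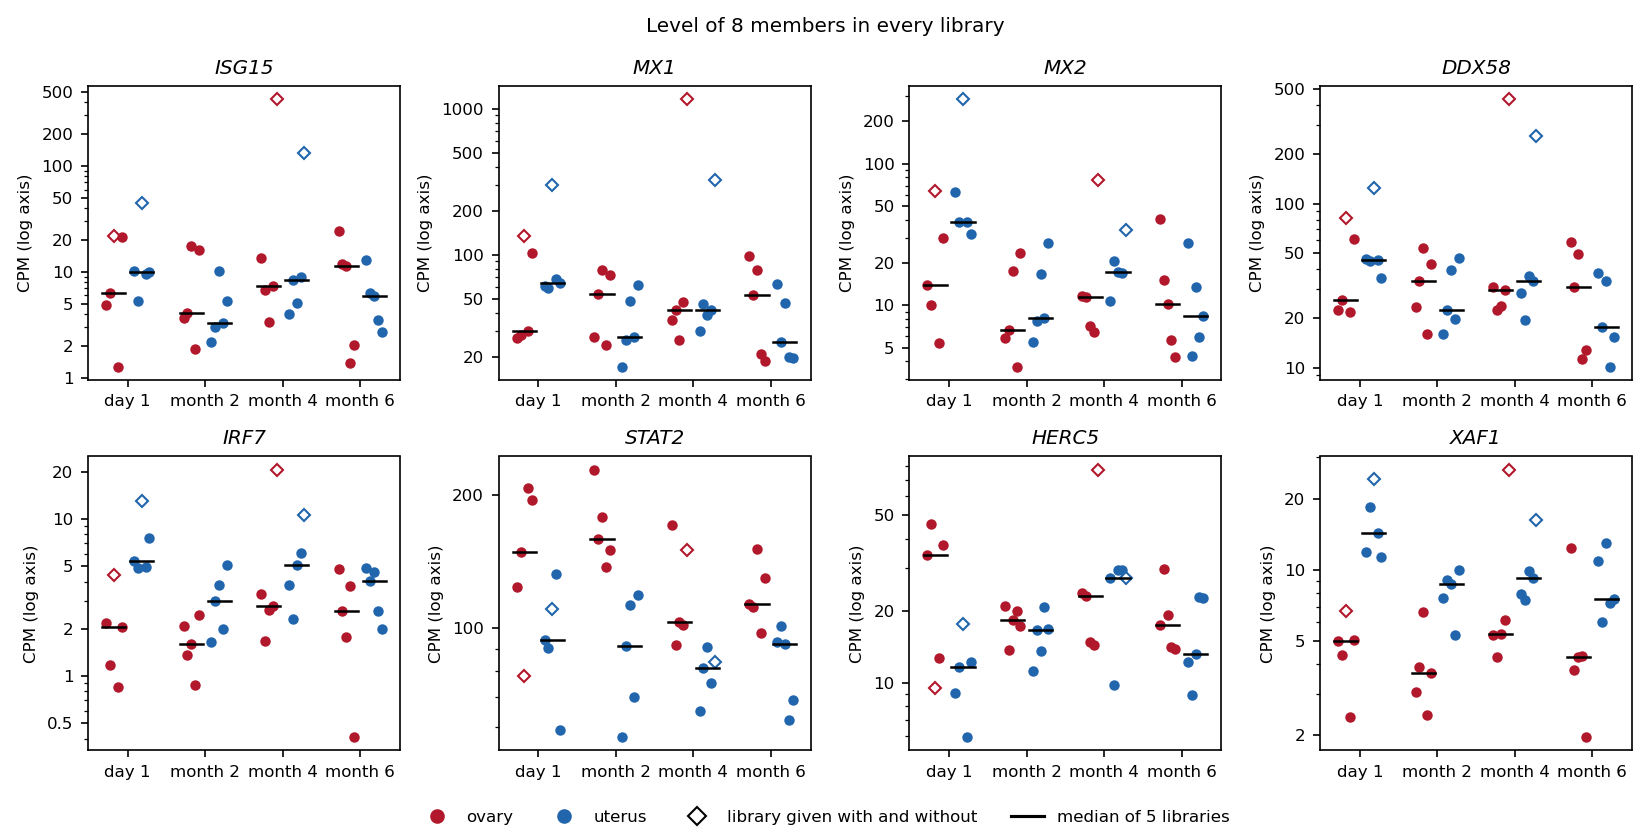
CPM on a log axis of 8 members in all 40 libraries, ovary in red and uterus in blue, with the median of each group of 5 as a bar. Open diamonds are ovary month 4 library 5, uterus month 4 library 5, uterus day 1 library 3 and ovary day 1 library 3. Diamonds stand at the top of their groups for ISG15, MX1, MX2, DDX58, IRF7 and XAF1 but not for STAT2, and for HERC5 only some do.

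Libraries of the ovary and the uterus that share an age and an individual number were also compared, although the labels do not say that they come from 1 animal. Deviations of log2 CPM from the group mean were correlated over the 20 such pairs, which is a description. The median r of the 31 members was 0.62, while that of the 20518 genes tested was 0.10. Above 0 were 28 members, beside 64.2% of all genes, and 25 members exceeded the 90th percentile of all genes, 0.47. Both pairs that hold the 4 libraries with doubtful values weighed on this: over the other 18 pairs the median of the members was 0.28, against 0.03 for all genes, and 8 members were above the 90th percentile of 0.41. Of the 31 members 24 were then above 0, beside 54.3% of all genes. MX1 had r = 0.74, DDX58 0.71, EIF2AK2 0.61 and ISG15 0.61, whereas TRIM25 had -0.46 and STAT2 -0.18. IFIT3, ZBP1, IFI44L, HERC5 and IFIH1 were below 0 as well, at -0.39, -0.22, -0.17, -0.13 and -0.04.

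MX1, the member with the highest r over the 18 pairs, is an example. At month 2 its ovary values were 27.4, 53.6, 78.2, 24.2 and 73.2 CPM and its uterus values 17.2, 26.2, 48.2, 27.3 and 62.3. Libraries 3 and 5 were the highest of the group in both organs. At month 6 the ovary held 97.3, 52.7, 78.2, 20.8 and 18.8 CPM and the uterus 63.2, 25.2, 46.7, 19.8 and 19.6, and libraries 4 and 5 were the lowest in both. The 2 month 4 libraries with high interferon genes both carry number 5, and the 2 day 1 libraries both carry number 3. Over all genes the deviations of that month 4 pair correlated at 0.29 and those of the day 1 pair at -0.0045.

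**Figure D5:**
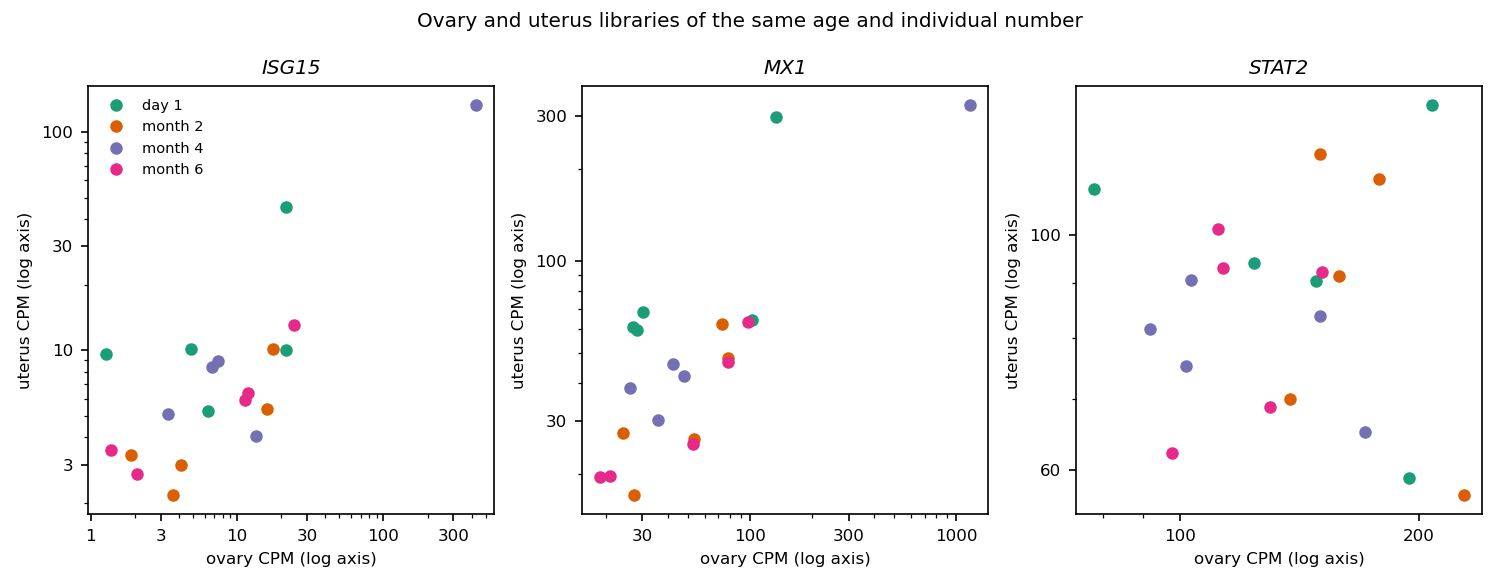
Each point is 1 pair of an ovary and a uterus library of the same age and individual number, with the ovary CPM on the x axis and the uterus CPM on the y axis, both on log scales, coloured by age. For ISG15 and MX1 the month 4 pair of library 5 lies at the upper right (426 and 132 CPM, 1157 and 324 CPM) and most other pairs rise together, while the STAT2 points show no such slope.

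The rest of the interferon pathway was read from lists fixed alongside the members. Of the 8 interferon genes looked for, 3 were found, and their summed level was at most 2.47 CPM in any library. IFNG, the interferon of T and NK cells, was at 0.0346 CPM in ovary month 4 library 5 and at 0 CPM in uterus month 4 library 5 and uterus day 1 library 3. IFNE, an interferon of the female reproductive tract epithelium, was at 0.0865, 0.294 and 0.604 CPM in those 3 libraries, against up to 2.38 in other uterus libraries. IFNK, an interferon of skin, was at 0 CPM in the 3. None of the 3 interferon genes found was thus highest in a library with high response genes, and the other 5 are not analysed here.

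Receptor and kinase genes were set against their groups in the same way. The receptor subunits IFNAR1 and IFNAR2 were 0.95 and 0.89 log2 units above the median of the other 4 libraries in ovary month 4 library 5, IFNGR1 was 1.21 above it, and the kinase TYK2 was 0.795 above it. The kinase JAK1 was 0.46, 0.38 and 0.18 log2 units below it in ovary month 4 library 5, uterus month 4 library 5 and uterus day 1 library 3. SOCS1, a feedback inhibitor, was at 1.71, 2.30 and 0.604 CPM in these 3 libraries, and at least 1 log2 unit up in both month 4 libraries. In the list of 14 sensors, adaptors and kinases, 1, 0 and 1 were at least 1 log2 unit up in the 3 libraries, beside 9.46%, 11.2% and 10% of all genes tested. The adaptor MAVS and the DNA sensor CGAS (annotated as MB21D1) were within 0.31 log2 units of the median in all 3, while the adaptor TMEM173 was at 58.8 CPM in uterus day 1 library 3 against at most 22.2 in its group. Of the interferon regulatory factors, IRF3 was at 91.6, 39.8 and 56.4 CPM, IRF1 at 16.3, 9.66 and 30.4 CPM, and IRF8 at 16.4, 10.7 and 5.15 CPM in the 3 libraries. Of 7 such factors tested, 1, 0 and 0 were at least 1 log2 unit up in the 3, and 1, 2 and 2 were down. The 1 that was up, in ovary month 4 library 5, was IRF3. Among 19 further interferon-induced genes tested, 8, 5 and 2 were up, beside the same shares of all genes. The 2 of 19 in uterus day 1 library 3 lay near its share of 10%. RTP4, a receptor transporter that is strongly interferon-induced, was up in all 3. It stood at 96.6, 51.7 and 89.4 CPM, against group medians of 11.7, 19.6 and 21.2 for the other 4 libraries. UBE2L6, the conjugating enzyme for ISG15, was at 95.9, 52.3 and 49.9 CPM, against medians of 20.9, 24.5 and 28.0. SAMHD1, a nucleotide hydrolase that starves viruses, was highest of all uterus libraries in day 1 library 3, at 242 CPM against at most 82.9. Genes known as interferon gamma targets differed between the libraries. In ovary month 4 library 5, 5 of 12 were up and 0 down, the chemokine CXCL10 at 231 CPM against 40.4 to 103 among them. In uterus month 4 library 5, 1 of 12 was up and 4 were down. The chemokine CXCL9 was there at 7.99 CPM against 78.6 to 321 in its group. In uterus day 1 library 3, 0 of 12 were up and 0 down.

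No gene of these lists passed the test between ages in the ovary with all libraries. Without ovary day 1 library 3 and the other 3, edgeR called TLR9, IRF8 and PARP12 lower at month 6 than at day 1, by -1.91 (adjusted p = 0.0394), -1.71 (0.0292) and -1.53 (0.00606), and CIITA higher, by 1.55 (0.0375). That fit called 4.31% of all genes. With all libraries the lists held 13, 14, 7, 19, 12 and 1 genes tested in the ovary. In the uterus from day 1 to month 6 edgeR called SOCS3, a feedback inhibitor of cytokine signalling, at 3.22 ± 0.74 (adjusted p = 0.0364) and SAMHD1 at -1.37 ± 0.32 (adjusted p = 0.0374), beside 1.42% of all genes. Neither was called without the 3 libraries, when 1.27% of all genes were. SOCS3 at month 6 ran from 12.4 to 305 CPM, with the top value in library 2. Between organs at day 1 the calls were 0 of 13 receptor, JAK and STAT genes, 2 lower of 14 sensors, adaptors and kinases, 1 higher of 7 interferon regulatory factors, 1 higher and 1 lower of 19 further interferon-induced genes, and 4 lower of 12 interferon gamma targets, beside 14.2% of all genes. IKBKE, a kinase that activates IRF3 and IRF7, was lower in the ovary at 4 of 4 ages, by -1.90 ± 0.35 at day 1 (adjusted p = 0.000216) to -1.67 ± 0.35 at month 6 (adjusted p = 0.00123). CIITA, the switch for class II antigen presentation, was also lower at 4 of 4 ages, by -1.92 ± 0.42 at day 1 (adjusted p = 0.00124). TMEM173, the STING adaptor of the DNA sensing pathway, was lower in the ovary at day 1 (-2.21 ± 0.49, adjusted p = 0.00160) and month 2 (-1.57 ± 0.49, adjusted p = 0.0192), and so was CXCL9 (-2.73 ± 0.56 at day 1, adjusted p = 0.000737). IRF8, a factor of myeloid cells, was higher in the ovary at day 1, by 2.32 ± 0.44 (adjusted p = 0.000291), as was PARP12, by 1.28 ± 0.35 (adjusted p = 0.00794). These calls stood without the 3 libraries. CXCL11, another chemokine, was lower in the ovary at day 1 (-1.85 ± 0.64, adjusted p = 0.0412), and IFNGR1 was lower at month 2 (-1.01 ± 0.30, adjusted p = 0.0163), again with and without them. SAMHD1 (-1.23 ± 0.30, adjusted p = 0.00316) and the proteasome subunit PSMB10 (-1.04 ± 0.25, adjusted p = 0.00304) were called lower at day 1 with all libraries and not without the 3.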

How the data were processed

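RNA-seq read counts per gene were used as the authors deposited them, 1 table of 40 libraries, and the values are whole raw counts that were not normalized. The submitters' processing notes name RSEM 1.3.0 beside StringTie 1.3.3b, HISAT2 and fastp 0.23.1, with no role for each. Not given in the sources used here were the genome build, the strand setting and how multi-mapping reads were counted. Near-identical copies and antisense partners may therefore share reads, which can touch the IFIT, IFI44 and MX genes. Of 30049 rows, 28910 carry an NCBI gene number, and all of those matched a RefSeq symbol of the goat assembly ARS1.2, which served for names only. The other 1139 rows are loci assembled by the authors and stayed in the tests. TMEM173 and MB21D1 stand for the current names STING1 and CGAS.

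The members and lists were chosen with earlier results of these data known. Every listed member is accounted for. The level in each library is given for members called in any comparison and for a list of sensors, signalling genes, ISG15 genes and effectors, and other members are given by ratios and ranges. Of the pathway lists, values are given here for some of the genes found and not for the others.

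Levels are CPM of the library total. Tests used edgeR 4.0.16 in R 4.3.3 with limma 3.58.1, with TMM scaling, edgeR's default filter on low counts and robust quasi-likelihood fits, 1 fit of 20 libraries per organ for the ages and 1 fit of 40 libraries for the organs. Calls required an adjusted p (Benjamini-Hochberg, over all genes) under 0.05 together with a change of at least 1 log2 unit either way. The code was tested on simulated data. Alternatives were DESeq2 1.42.0, its size factors, no filter, a replicate block, only the groups compared, leaving out 1 library at a time, and leaving out ovary month 4 library 5, uterus month 4 library 5 and uterus day 1 library 3, with or without ovary day 1 library 3.

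The labels number individuals but state no separate handling, so p-values measure the spread between these samples. No libraries of a group were duplicates: the lowest chi-square per degree of freedom among 80 pairs within groups was 88.3. Totals of 31.9 to 62.7 M counts (median 51.3 M) keep counting error small beside that spread for most members.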

Additional observations from a re-analysis of the deposited data

Results flagged for a closer look

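A library was listed here where it stood apart from the other 4 of its group by Dixon's criterion. The criterion was applied to each member's log2 CPM with a prior count of 2, and to the mean of the members on that scale. Levels of single members below are given as CPM. The criterion was met in 50 of 256 tests. Chance flags about 1 in 20 groups, but 40 of the 50 values lie in the 3 libraries that were singled out beforehand for high levels of these genes, so the total is a description and is not read against that rate.

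Ovary month 4 library 5 was high for 24 members and for their mean. Among sensors and signalling genes it held IFIH1 at 169 CPM, DDX58 at 433, EIF2AK2 at 574, ZBP1 at 47.7, IRF7 at 20.6 and IRF9 at 49.95. Of the ISG15 conjugation genes it held ISG15 at 426 CPM, HERC6 at 90.9 and UBA7 at 44.5. The effectors MX1, MX2, RSAD2, CMPK2, IFIT3, IFIT5 and SAMD9 stood at 1157, 76.3, 106, 172, 359, 519.9 and 409 CPM. IFI44, IFI44L, IFI6, IFI35 and XAF1 were at 129, 452, 2854, 78.4 and 26.4 CPM, and PARP9, PARP14 and DTX3L at 179, 339 and 241 CPM. The mean of the members was 7.19 on the log2 CPM scale, against 4.18 to 4.58 in the other 4.

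Uterus day 1 library 3 was high for MX1 at 298 CPM, RSAD2 at 79.0, IFIT3 at 120.3, DDX58 at 125, CMPK2 at 50.5, IFI35 at 46.2 and SAMD9 at 295. Its mean of the members was 6.18. Uterus month 4 library 5 was high for ISG15 at 132 CPM, MX1 at 324, DDX58 at 257, DHX58 at 43.1, IFI6 at 1588, EIF2AK2 at 403 and UBA7 at 23.0.

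Low values were found in ovary day 1 library 4, with IFI44 at 3.54 CPM, IRF9 at 5.86, IFI6 at 22.4 and ZBP1 at 0.853. Ovary month 6 library 5 was low for IFIH1 at 15.2 CPM and IRF9 at 11.7. Single values stood apart in uterus month 2 library 5 (IFIH1 high at 57.2 CPM), uterus month 4 library 2 (HERC5 low at 9.78), uterus month 6 library 2 (ZBP1 low at 0.825) and ovary month 2 library 4 (CMPK2 low at 10.7).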

How the results depend on the processing

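No called result reversed, and DESeq2's size factors in edgeR changed no count of calls. Leaving out ovary month 4 library 5, uterus month 4 library 5 and uterus day 1 library 3, or these and ovary day 1 library 3, moved the median log2 fold change of the members to -0.0447 and -0.0446 from month 2 to month 4 in the ovary, to 0.14 from month 4 to month 6 in the ovary and to -0.18 from month 4 to month 6 in the uterus. Calls from day 1 to month 6 in the uterus went from 1 to 0 without the 3 or the 4 libraries, with no filter on low counts, with only the groups compared and with the replicate block, and to 3 in DESeq2. DESeq2 called 3 members from day 1 to month 2 in the uterus. Without the 4 libraries 1 member was called from day 1 to month 6 in the ovary and 4 between organs at day 1, where only the groups compared gave 1. Between organs at month 2, leaving out the 3 or the 4 libraries gave 1 call. For these shifts the cause was not tested beyond the libraries left out.

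Leaving out 1 library at a time gave 0 to 2 calls from day 1 to month 6 in the uterus, and 1 to 4, 0 to 1 and 0 to 3 calls between organs at day 1, month 2 and month 4. The share of all genes called in such fits is not given here. With all libraries it was 1.42%, 14.2%, 16.3% and 11.1% in that order. Medians then ran from -0.0447 to 1.602 and from -1.28 to 0.14 at the ovary steps into and out of month 4, from -0.93 to -0.17 from month 4 to month 6 in the uterus, from -0.99 to 0.92 between organs at month 4, and from 0.24 to 1.05 for the organ difference in the change from day 1 to month 6.

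Individual numbers did not establish pairing: deviations of same-numbered ovary and uterus libraries over all genes correlated between -0.16 and 0.30 (20 pairs, 9 over 0.1), and 8 of 20 ovary libraries matched their own number best. With the number as a block, calls were 5 between organs at day 1 (MX2, HERC6, IFIT2, IRF7 and XAF1, with HERC5 lost at an adjusted p of 0.0694) beside 11.2% of the genes, 1 at month 2 (XAF1) beside 15.7%, and 0 beside 0.676% from day 1 to month 6 in the uterus.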
